A study of Danio rerio with 6 samples.

Results

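The cytosolic ribosomal protein genes were examined in RNA-seq of zebrafish (Danio rerio) tissue lying behind the last somite at 16 hours post fertilisation. They were taken as the table rows whose gene name has the form rpl, rpla, rplp, rps, rpsa or rpsp with a number and the usual letter endings, which gave 81 of 32520 rows. The match rps6kl1 belongs to a gene named for a ribosomal protein S6 kinase-like protein, had at most 5 counts in a library and was set aside. The 80 rows left comprise 48 rows of the large and 32 of the small subunit. Of these, 79 had enough counts to be tested (47 large, 32 small). The row left untested was rpl26, with 2, 7 and 1 counts in morphants 1, 2 and 3 and 4, 0 and 7 in controls 1, 2 and 3. The name rpl37 stands on 2 rows, ENSDARG00000034291 with 1272 bases of exon and ENSDARG00000076360 with 6136, and both were kept.

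The study, on elongation of the posterior body, compared 3 libraries of sall4 morphants with 3 control libraries. Morphants came from embryos that received an antisense morpholino oligomer, which blocks the translation or splicing of an mRNA, directed at sall4, the gene of a transcription factor with zinc fingers. Among the controls, library 1 came from embryos given a scrambled morpholino, and libraries 2 and 3 came from non-injected embryos. No other allele or agent is named in the labels. RNA was polyadenylated and libraries were strand-specific, per the labels. Whether the libraries came from different clutches is not in the labels. The p-values therefore cover the spread among these 6 samples only, which may be technical. A morpholino acts in the whole injected embryo, and injection as such is matched in 1 control library only.

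Ribosomal proteins and ribosomal RNA together form the large and small subunits of the ribosome. The small subunit reads the messenger RNA, and the large subunit joins the amino acids and lets the growing chain out through an exit tunnel. In vertebrates the mRNAs of these proteins begin with a pyrimidine tract that ties their translation to growth signalling through mTOR, and free ribosomal proteins in excess are degraded. Zebrafish carrying 1 mutant copy of many of these genes develop nerve sheath tumours, and in humans heterozygous loss of several of them causes Diamond-Blackfan anaemia.

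Total counts were 18626513 to 42423495 per library. The targeted gene sall4 had 974.5, 1337 and 1390 CPM (read counts scaled to the effective library size) in morphants 1, 2 and 3, against 1110, 1312 and 1347 CPM in controls 1, 2 and 3. Since a morpholino can act without lowering the transcript, these values do not check the injection. Of 20 markers of the caudal tissue, 19 had counts in every library, and wnt8a was near 0. The notochord and mesoderm gene tbxta had 690, 461 and 500.4 CPM in morphants 1, 2 and 3, against 612, 709 and 683 CPM in controls 1, 2 and 3. The caudal marker msgn1 had 8006, 2141 and 4301 CPM in morphants 1, 2 and 3, against 2601, 4251 and 3695 CPM in controls 1, 2 and 3. Log2 fold changes (morphant minus control) were −0.28 for tbxta and −0.32 for hoxa13b. They were 0.45 for msgn1, 0.19 for tbx16 and 0.13 for cdx4, and edgeR adjusted p-values of these genes lay between 0.68 and 0.88. Caudal identity was thus present in all 6 libraries, but its markers were not at even levels. Mitochondrial mRNA took 9.50, 4.44 and 8.77% of counts in morphants 1, 2 and 3, against 5.04, 6.68 and 6.03% in controls 1, 2 and 3. Across all 17803 tested genes, the Spearman correlation between exon length and a gene's deviation from the mean of the 6 libraries was −0.42, 0.43 and −0.28 in morphants 1, 2 and 3, against 0.21, −0.013 and 0.041 in controls 1, 2 and 3. Short genes thus stood high in morphants 1 and 3, whereas in morphant 2 they stood low. The genes share their libraries, so this is a description without a p-value.

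The ribosomal protein genes were among the most abundant transcripts of the tissue. Levels between genes are compared as FPKM, the authors' deposited fragments per kilobase, scaled by a size factor of each library. The median member stood at 515 FPKM as a mean of 6 libraries, against 4.21 FPKM for the median tested gene. Of the 80 members, 62 exceeded 100 FPKM and 26 exceeded 1000, and 29 were among the 100 genes highest in FPKM. The small subunit median was 551 FPKM and the large subunit median 498.

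At the top stood rps15 (ENSDARG00000070849), a small subunit protein of the decoding region, with 4686 ± 2756 FPKM in morphants and 3376 ± 394 in controls (mean ± SD, n = 3 each). It was followed by rps14 (ENSDARG00000036629), the gene lost in the human 5q- syndrome, with 4447 ± 2361 FPKM in morphants and 3217 ± 378 in controls. Next came rpl19, with 4101 ± 1577 FPKM in morphants and 3172 ± 137 in controls. These neighbours do not differ beyond their spread. The next ranks were held by rps2, which lines the mRNA entry channel, and by rpl7.

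At the other end, 14 members were under 50 FPKM. Apart from rpl26, the lowest were rps8b with 0.580 ± 0.115 FPKM in morphants and 0.686 ± 0.150 in controls, and the 6136-base row of rpl37 with 3.14 ± 1.52 FPKM in morphants and 1.63 ± 0.47 in controls (SD, n = 3 each). The paralogue rps8a stood at 1841 ± 697 FPKM in morphants and 1562 ± 133 in controls. The low group also holds rpl9, rpl31, rpl22, rps27l, rpl35a, rpl38, rplp2l, rps29, the 1272-base row of rpl37, rps21 and rpl11. How reads shared with near-identical copies were counted is not given in the sources used here, so these low levels are uncertain. The order of the 80 levels was alike between libraries, with Spearman correlations of 0.973 to 0.998 between pairs of libraries.

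Morphants were set against controls to find transcripts that depend on sall4. For the ribosomal protein genes, 0 of 79 passed the threshold of an adjusted p of 0.05 in edgeR's quasi-likelihood test, in either direction. Over all 17803 genes 5 passed, which is 0.0281%. By DESeq2, 0 members passed as well, against 1.61% of the genes it tested. Neither tool thus called a ribosomal protein gene. At an unadjusted p under 0.05, edgeR counted 0 members, against 4.47% of all genes on the higher side and 5.19% on the lower side. DESeq2 counted 1 member as higher, against 4.26% of all genes, the 6136-base row of rpl37 (unadjusted p = 0.0476, DESeq2 adjusted p = 0.45).

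Most members nevertheless had a small positive log2 fold change, given as morphant minus control throughout. The value was above 0 for 76 of 79 members, against 58.2% of all tested genes. The median was 0.37 in the large subunit and 0.38 in the small subunit, against 0.12 over all tested genes. Standard errors ran from 0.25 to 0.52 with a median of 0.41, so the typical member's change is smaller than its own error. In 29 of 79 members the change exceeded its standard error. Values were packed closely, with 63 of 79 members between 0.2 and 0.6.

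**Figure D1:**
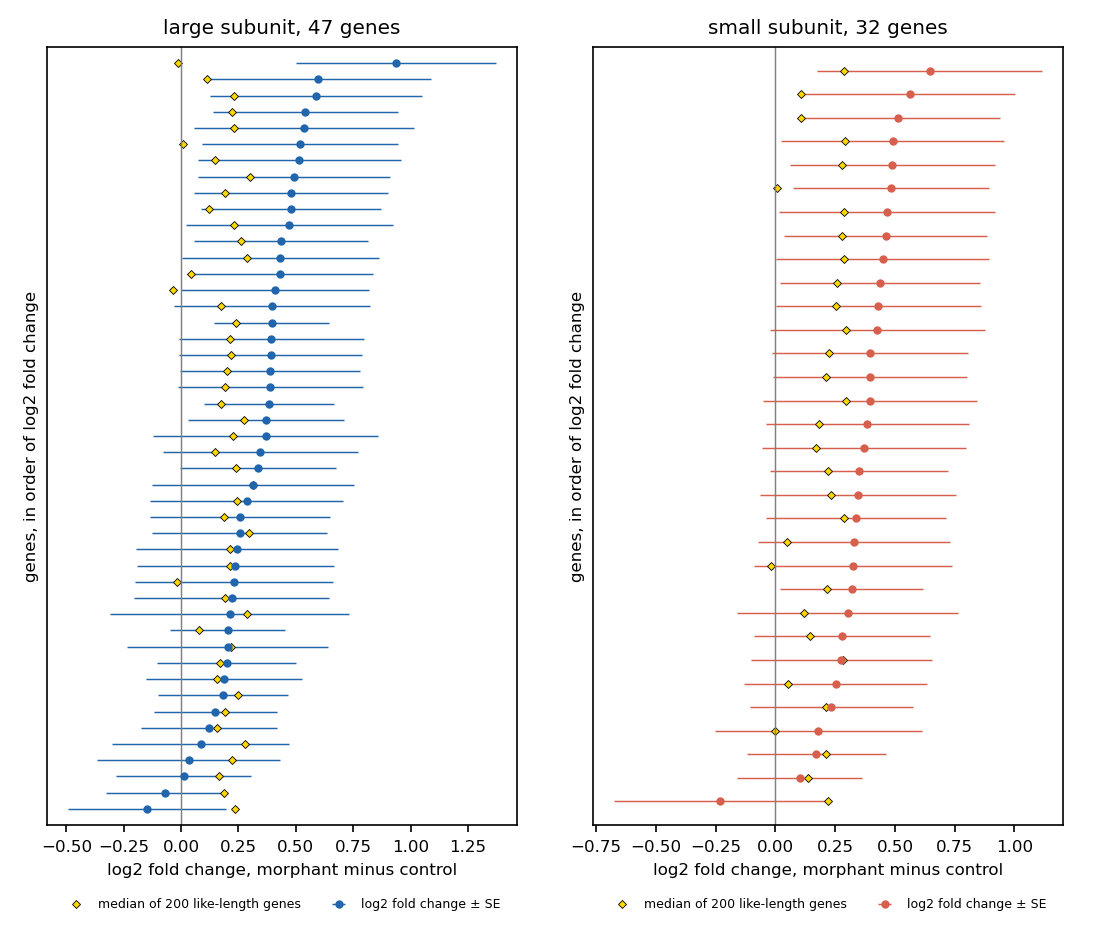
Log2 fold change (morphant minus control) of the 47 large (left) and 32 small (right) subunit genes that were tested (1 gene a line, in order of fold change), as point ± SE from edgeR over 3 libraries a group, with a yellow diamond for the median of the 200 tested genes nearest in exon length. Of 79 members 76 lie above 0 and 63 above the diamond, and 0 passed the threshold.

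These genes are short, with a median exon length of 1225 bases against 2386 for all tested genes, and length moved with the library as given above. Each member was therefore set beside the 200 tested genes of other kinds that lie nearest in exon length. These neighbours had a median log2 fold change of 0.21 for large and 0.22 for small subunit members. Short genes of other kinds thus shared part of the difference. The excess of a member over its neighbours had a median of 0.14 in the large subunit and 0.18 in the small subunit, and it was above 0 for 35 of 47 and 28 of 32 members. When the neighbours were limited to abundant genes (average log2 CPM of at least 6), the median excess was 0.023 and 0.063. With a length trend removed from every library, the median log2 fold change was 0.20 in the large subunit and 0.21 in the small subunit, and 0 members were called, against 0.0955% of all genes higher and 0.0169% lower.

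The pattern across single libraries was far larger than the difference between groups. Relative to the mean of the controls in log2 CPM, the median large subunit gene stood at 0.88, −0.69 and 0.46 in morphants 1, 2 and 3, against −0.15, 0.074 and 0.11 in controls 1, 2 and 3. The median small subunit gene stood at 0.94, −0.69 and 0.49 in morphants 1, 2 and 3, against −0.16, 0.075 and 0.099 in controls 1, 2 and 3. Both subunits thus stood above the controls in morphants 1 and 3 and below them in morphant 2, and the 3 morphants lay on both sides of the controls.

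Neighbours of like length, not matched for abundance, followed the same order of morphants at a smaller size. Control 1 was the lowest control for them too, but controls 2 and 3 stood in the reverse order. For the large subunit their medians were 0.44, −0.31 and 0.20 in morphants 1, 2 and 3, against −0.055, 0.050 and 0.017 in controls 1, 2 and 3. For the small subunit they were 0.54, −0.35 and 0.20 in morphants 1, 2 and 3, against −0.072, 0.052 and 0.034 in controls 1, 2 and 3.

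**Figure D2:**
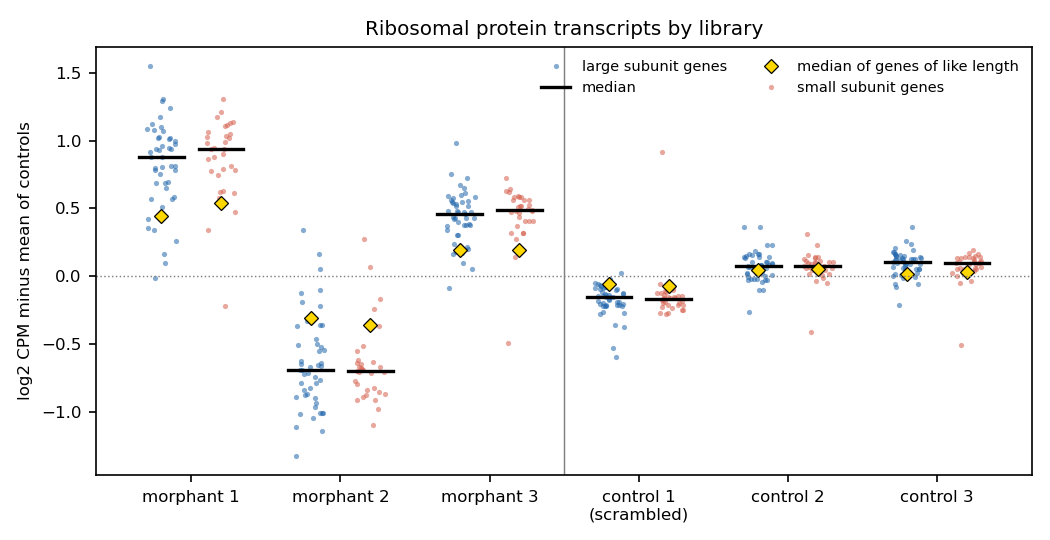
Log2 CPM minus the mean of the 3 controls for each tested ribosomal protein gene (points), with medians over 47 large (blue) and 32 small (red) subunit genes as bars and the median of genes of like length as diamonds. The members stand above 0 in morphants 1 and 3 and below 0 in morphant 2, further out than the diamonds, while the controls stay near 0. The genes behind the diamonds are not matched for abundance.

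Of the 79 members, 72 were highest in morphant 1, against 32.1% of all tested genes, and 72 were lowest in morphant 2, against 28.2% of all tested genes. In 70 of 79 members (88.6%) morphants 1 and 3 were above all controls and morphant 2 was below all controls, a pattern held by 12.3% of all tested genes. The 9 exceptions were rpl3, rpl4, rpl5a, rpl9, rplp0, rps4x, rps8b, rps27l and the 6136-base row of rpl37. The shares of all tested genes cover every exon length, and none was taken over genes of like length or abundance. The median member was 3.11-fold higher in morphant 1 than in morphant 2. The range within the morphant group had a median of 1.64 on the log2 scale, against 0.31 within the control group, and it was the wider of both in 76 of 79 members. That count was not made over all tested genes, which also spread more widely in the morphants. The SD over all tested genes of the deviation from the control mean was 1.13, 0.91 and 0.72 in morphants 1, 2 and 3. In controls 1, 2 and 3, which form that mean, it was 0.35, 0.38 and 0.30.

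As shares of all counts, the 80 members took 10.2, 5.80 and 9.16% in morphants 1, 2 and 3, against 6.77, 8.15 and 7.47% in controls 1, 2 and 3. The means were 8.39 ± 2.30% in morphants and 7.46 ± 0.69% in controls (SD, n = 3 each), so the groups overlap and the difference is smaller than the spread among morphants. The small subunit alone took 4.62, 2.29 and 4.05% in morphants 1, 2 and 3, against 2.87, 3.49 and 3.20% in controls 1, 2 and 3. In bulk tissue, fewer cells of a type and less RNA per cell cannot be told apart.

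Counts of large over small subunit genes gave a ratio of 1.21, 1.54 and 1.26 in morphants 1, 2 and 3, against 1.36, 1.33 and 1.33 in controls 1, 2 and 3. The group means were alike, at 1.34 ± 0.18 in morphants and 1.34 ± 0.015 in controls (SD, n = 3 each), while the morphants spread more widely. A pair of large subunit genes, chosen after their values were seen, carried much of that spread. Together rpl3 and rpl4 held 4.58, 11.7 and 6.04% of all member counts in morphants 1, 2 and 3, against 7.98, 7.55 and 7.70% in controls 1, 2 and 3. Without them the ratio was 1.107, 1.24 and 1.123 in morphants 1, 2 and 3, against 1.17, 1.16 and 1.15 in controls 1, 2 and 3.

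Among the proteins around the peptidyl transferase centre and the exit tunnel, rpl4 (ENSDARG00000041182), whose protein lines the tunnel, had 2563, 3034 and 2683 CPM in morphants 1, 2 and 3, against 2288, 2523 and 2377 CPM in controls 1, 2 and 3. All morphants were above all controls, and morphant 2 was the highest library. The log2 fold change was 0.20 (edgeR adjusted p = 0.76, SE 0.25). It was the 1 member of 79 whose groups did not overlap on the higher side, against 7.77% of all tested genes, and 0 members did so on the lower side, against 9.18%.

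The gene rpl3 (ENSDARG00000003599), which encodes a protein reaching towards the peptidyl transferase centre, was the steadiest member among the morphants. It had 3151, 2969 and 2989 CPM in morphants 1, 2 and 3, against 2851, 3128 and 3586 CPM in controls 1, 2 and 3. The groups overlap, and the log2 fold change of −0.071 (edgeR adjusted p = 0.92, SE 0.26) is 1 of the 3 below 0. The others below 0 were rpl9, at −0.15 (SE 0.34), and rps8b, at −0.23 (SE 0.44).

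Other genes of this region followed the common order of libraries. For rpl8, a core protein of the peptidyl transferase region, the level was 3014, 1612 and 2359 CPM in morphants 1, 2 and 3, against 1942, 1988 and 2155 CPM in controls 1, 2 and 3. For rpl10, which joins the large subunit late in assembly, it was 3962, 1294 and 2752 CPM in morphants 1, 2 and 3, against 1850, 2154 and 2114 CPM in controls 1, 2 and 3. In both, morphant 1 was the highest library and morphant 2 the lowest.

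At the tunnel exit, rpl39 (ENSDARG00000036316), among the shortest ribosomal proteins, had 1111, 253 and 695 CPM in morphants 1, 2 and 3, against 404, 501 and 515 CPM in controls 1, 2 and 3. Its log2 fold change was 0.54 (edgeR adjusted p = 0.69, SE 0.48), within the spread of the morphants. For rpl35, a binding partner of factors at the exit, the level was 731, 180 and 431 CPM in morphants 1, 2 and 3, against 254, 332 and 306 CPM in controls 1, 2 and 3. The tunnel genes rpl17 and rpl23a had log2 fold changes of 0.48 and 0.44 with the same order of libraries.

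The acidic stalk, which calls in the GTPase factors of translation, consists of rplp0, rplp1 and rplp2. Its base gene rplp0 (ENSDARG00000051783) had 2401, 1372 and 1964 CPM in morphants 1, 2 and 3, against 1828, 1762 and 2100 CPM in controls 1, 2 and 3, a log2 fold change of 0.012 (SE 0.29) whose sign differed between settings. The gene rplp2 (ENSDARG00000101406) had 60.0, 13.4 and 39.1 CPM in morphants 1, 2 and 3, against 20.3, 24.7 and 29.3 CPM in controls 1, 2 and 3. Here the stalk genes differed in how far the morphants were apart, from 0.81 for rplp0 to 2.16 for rplp2 on the log2 scale between morphants 1 and 2. The log2 fold changes of rplp1 and rplp2 were 0.39 and 0.60, and 0.085 for the related row rplp2l.

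Proteins of the 5S ribonucleoprotein bind the 5S ribosomal RNA and, in mammals, restrain Mdm2 when ribosome assembly fails. The gene rpl5a (ENSDARG00000020197) had 699, 523 and 626 CPM in morphants 1, 2 and 3, against 439, 523 and 443 CPM in controls 1, 2 and 3, a log2 fold change of 0.39 (edgeR adjusted p = 0.62, SE 0.25). Its paralogue rpl5b had 1257, 861 and 1160 CPM in morphants 1, 2 and 3, against 870, 1032 and 1057 CPM in controls 1, 2 and 3. In both genes the groups overlap. Morphant 2 lay within the controls for rpl5a and just below them for rpl5b.

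The ratio of rpl5a to rpl5b was 0.556, 0.607 and 0.539 in morphants 1, 2 and 3, against 0.505, 0.507 and 0.419 in controls 1, 2 and 3. All morphants lay above all controls. Among the other gene pairs whose count ratios were taken, rpl4 over rpl3 also had all morphants above all controls, and the rest overlapped. The ratio of rpl5a to rpl5b was picked out after the values were seen, so no test is given. Reads that both of these copies share could have been split between them. The partner gene rpl11, with 34.2, 13.5 and 34.7 CPM in morphants 1, 2 and 3, against 22.1, 24.7 and 22.1 CPM in controls 1, 2 and 3, had morphants 1 and 3 above all controls and morphant 2 below.

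Several large subunit genes are known for tissue-limited effects. In mouse, loss of 1 copy of Rpl38 gives the Tail short mutant, with a changed axial skeleton and reduced translation of some Hox mRNAs. In the zebrafish tissue rpl38 (ENSDARG00000006413) had 35.2, 10.8 and 30.5 CPM in morphants 1, 2 and 3, against 19.9, 21.7 and 24.0 CPM in controls 1, 2 and 3. Morphants 1 and 3 were above all controls and morphant 2 below, and the log2 fold change was 0.22 (edgeR adjusted p = 0.85, SE 0.43).

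In zebrafish, the paralogues rpl22 and rpl22l1 have opposed roles in the emergence of blood stem cells. For rpl22 (ENSDARG00000070437) the level was 110.1, 33.0 and 91.7 CPM in morphants 1, 2 and 3, against 47.9, 61.8 and 54.0 CPM in controls 1, 2 and 3. Its log2 fold change was 0.52 (edgeR adjusted p = 0.67, SE 0.43). For rpl22l1 the level was 231, 53.9 and 201 CPM in morphants 1, 2 and 3, against 89.0, 158 and 173 CPM in controls 1, 2 and 3, with a log2 fold change of 0.21 (SE 0.52) whose sign differed between settings. The scrambled-injected control was the lowest of the controls in both genes.

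The largest log2 fold change of the members belonged to the 6136-base row of rpl37 (ENSDARG00000076360). It had 26.3, 9.28 and 17.7 CPM in morphants 1, 2 and 3, against 6.18, 11.5 and 10.1 CPM in controls 1, 2 and 3. The log2 fold change was 0.94 (edgeR adjusted p = 0.54, SE 0.43), and morphant 2 lay among the controls. The other row of the same name had a log2 fold change of 0.25 (SE 0.44). As both carry 1 name and their sequences were not analysed here, reads may have been divided between them.

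**Figure D3:**
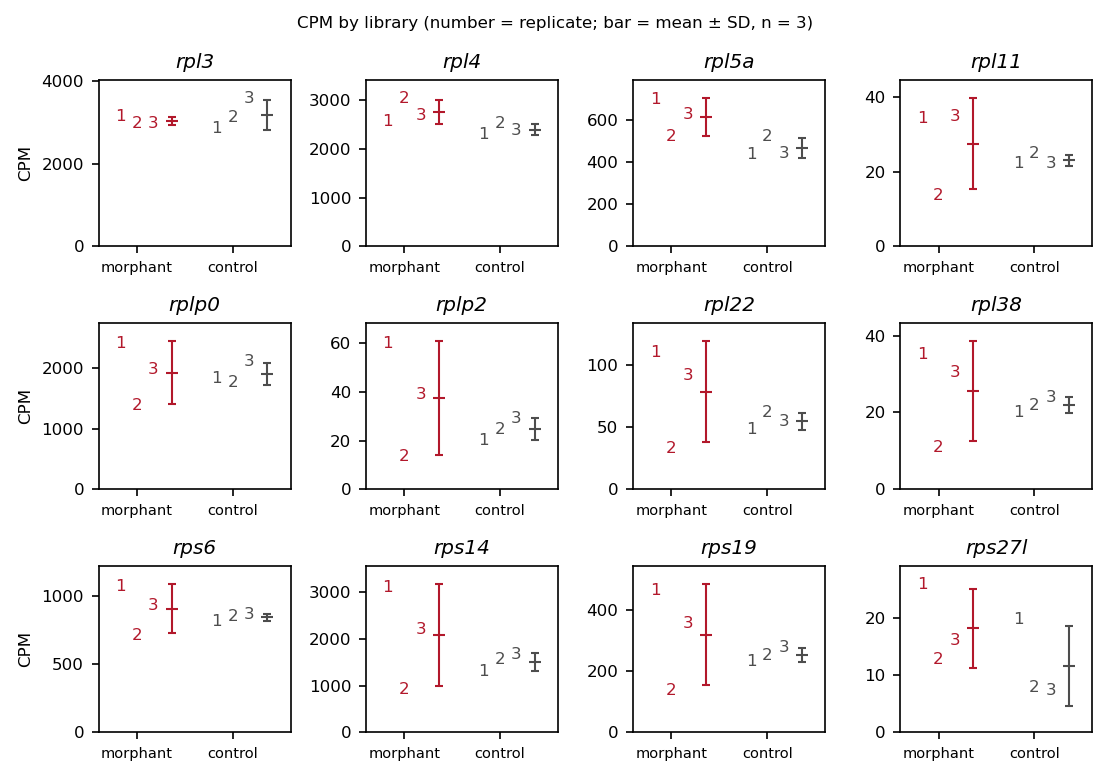
CPM of 12 named members in each library, with the replicate number as the plotting symbol, morphants in red, controls in grey, and mean ± SD (n = 3) beside them, on axes that start at 0. In most panels morphants 1 and 3 lie above the controls and morphant 2 below them, whereas rpl3, rpl4, rpl5a, rplp0 and rps27l depart from this. Of the panels, rpl3, rpl4 and rpl5a have the morphants closest together in fold.

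In the small subunit, the genes of the mRNA channel and decoding region shared the common pattern. The gene rps2 (ENSDARG00000077291) had 7324, 2912 and 5305 CPM in morphants 1, 2 and 3, against 3911, 4167 and 4734 CPM in controls 1, 2 and 3, a log2 fold change of 0.28 (edgeR adjusted p = 0.78, SE 0.37). The gene rps15 had 3395, 891 and 2150 CPM in morphants 1, 2 and 3, against 1333, 1614 and 1704 CPM in controls 1, 2 and 3. For both, morphants 1 and 3 were above every control and morphant 2 was below. The log2 fold changes of rps3 and rps26, whose proteins meet the mRNA at the entry and exit of the channel, were 0.25 and 0.30. Higher values in the small subunit were 0.56 for rps28 and 0.51 for rps16, both within the spread of the morphants.

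The S6 kinase substrate rps6 (ENSDARG00000019778) moved less between morphants than most members. It had 1068, 712 and 931 CPM in morphants 1, 2 and 3, against 810, 852 and 864 CPM in controls 1, 2 and 3. The order of libraries was the common one, and the log2 fold change was 0.10 (edgeR adjusted p = 0.89, SE 0.26). Its neighbours of like length stood at 0.14.

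Genes known from Diamond-Blackfan anaemia were listed by hand, and the list is not complete. It leaves out the 5S ribonucleoprotein genes, of which rpl5b and rpl11 held the common pattern and rpl5a did not. Of the listed genes, rps7, rps10, rps19, rps24 and rpl35a had morphants 1 and 3 above all controls and morphant 2 below. The same held for rps14 of the 5q- syndrome. The most often mutated of the listed genes in patients, rps19 (ENSDARG00000030602), had 464, 139 and 355 CPM in morphants 1, 2 and 3, against 234, 253 and 279 CPM in controls 1, 2 and 3. The log2 fold change was 0.32 (edgeR adjusted p = 0.77, SE 0.42). The changes were 0.48 for rps24, 0.46 for rps14, 0.43 for rps10, 0.34 for rps7 and 0.23 for rpl35a. For these 5 genes edgeR adjusted p-values lay between 0.68 and 0.84.

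The small subunit gene with the largest change was rps27l (ENSDARG00000100513), a p53 target in human cells. It had 25.8, 12.6 and 16.0 CPM in morphants 1, 2 and 3, against 19.7, 7.82 and 7.33 CPM in controls 1, 2 and 3. It was the 1 member of 79 in which all 4 libraries from injected embryos, the scrambled control included, stood above both libraries from non-injected embryos, against 3.52% of all tested genes. The log2 fold change was 0.65 (edgeR adjusted p = 0.64, SE 0.47). Set against the scrambled control alone it was −0.13.

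The scrambled-injected control was itself the lowest control for 73 of 79 members, against 34.6% of all tested genes. Its log2 CPM minus the mean of the non-injected controls had a median of −0.23 over the large subunit (46 of 47 below 0) and −0.25 over the small subunit (31 of 32 below 0), against 0.0047 over all tested genes. Relative to the mean of all 3 controls, the members had medians of −0.15 (large) and −0.16 (small) in that library. Genes of like length stood at −0.055 and −0.072, so short genes of other kinds shared part of the shift. On the same scale the 13 mitochondrial mRNAs had a median of −0.23 in that library, with 0 of 13 above 0. The mitochondrial ribosomal protein genes stood at −0.047 and the nuclear respiratory chain genes at −0.020. With 1 scrambled-injected library there is no test. The median log2 fold change of the large subunit was 0.52 against the scrambled control alone and 0.25 against the non-injected controls alone. The small subunit gave 0.50 and 0.30 in the same comparisons.

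The long end of the members comprises 8 with more than 3000 bases of exon, a limit chosen after the values were seen. These were rpl15, rpl22, rpl35a, rpl37, rps19, rps24, rps3 and rps9. Their median stood at 0.95, −0.70 and 0.44 in morphants 1, 2 and 3. The genes of like length stood at −0.34, 0.24 and −0.14 in the same libraries. Of the 8, the row of rpl37 did not stand below the controls in morphant 2, where its deviation was 0.051. The excess of these members over like length had a median of 0.39, and over the other 71 members the median excess was 0.14. Exon length here is the length behind the deposited FPKM of a row. Whether the expressed transcripts of these members have that length was not tested, so their like-length genes may be poorly matched.

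Across the 79 members, the correlation of exon length with deviation from the 6-library mean was −0.15, 0.31 and −0.28 in morphants 1, 2 and 3, against 0.0996, −0.24 and 0.057 in controls 1, 2 and 3. The difference between morphants 1 and 2 had a Spearman correlation with exon length of −0.26 and with mean FPKM of −0.19 over members. With exon length it was −0.15 in the large and −0.40 in the small subunit. With mean FPKM it was −0.43 in the large and 0.13 in the small subunit, so the subunits differed in sign. The members share libraries, so no p-value is given.

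**Figure D4:**
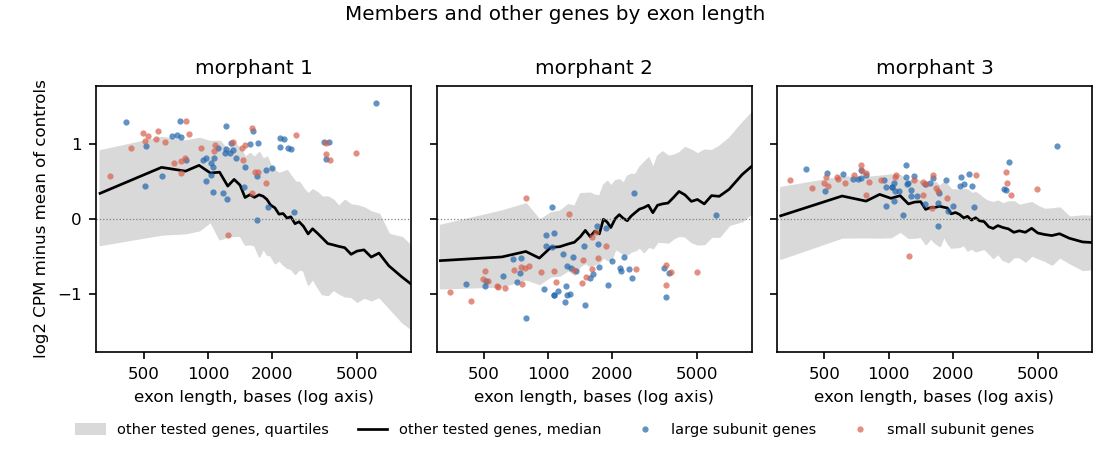
Log2 CPM minus the mean of controls against exon length (log axis) in morphants 1, 2 and 3, with points for large (blue) and small (red) subunit genes and a line with a grey band for the median and quartiles of the other tested genes. The line slopes down in morphants 1 and 3 and up in morphant 2, and the 8 members with over 3000 bases have medians of 0.95, −0.70 and 0.44 in morphants 1, 2 and 3.

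Proteins of the cytosolic ribosome whose names have another form gave like values in the median. Among them are rpsa, rps27.1 and rack1, and 0 of the 7 tested were called. Their median stood at 1.04, −0.70 and 0.56 in morphants 1, 2 and 3, against −0.13, 0.046 and 0.092 in controls 1, 2 and 3. The scaffold protein gene rack1, for example, had 2712, 1052 and 2049 CPM in morphants 1, 2 and 3, against 1555, 1526 and 1972 CPM in controls 1, 2 and 3. The log2 fold change was above 0 in 6 of the 7, and the exception was rpsa at −0.034 (SE 0.28). It had 1191, 747 and 1037 CPM in morphants 1, 2 and 3, against 941, 972 and 1132 CPM in controls 1, 2 and 3.

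The mitochondrial ribosome and the nuclear genes of the respiratory chain stood in the same order of libraries. The 74 mitochondrial ribosomal protein genes had a median of 0.84, −0.38 and 0.50 in morphants 1, 2 and 3, against −0.047, 0.042 and 0.043 in controls 1, 2 and 3. The 84 tested respiratory chain genes had a median of 0.87, −0.62 and 0.51 in morphants 1, 2 and 3, against −0.020, 0.00069 and 0.0083 in controls 1, 2 and 3. In both lists 0 genes were called, and the median log2 fold changes were 0.41 and 0.38. Both lists consist of short genes too, with median exon lengths of 1082 and 964 bases.

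Ribosome biogenesis factors, which process ribosomal RNA and assemble the subunits in the nucleolus, did not share the order. The 109 tested genes had a median of −0.12, 1.101 and 0.33 in morphants 1, 2 and 3, against −0.099, 0.11 and −0.0036 in controls 1, 2 and 3. Ribosomal protein genes minus biogenesis factors thus gave 1.03, −1.79 and 0.14 in morphants 1, 2 and 3, against −0.063, −0.041 and 0.11 in controls 1, 2 and 3. The gap was widest in morphant 2 and small in the controls. It is not adjusted for length, and the biogenesis genes are longer, with a median of 2304 bases of exon against 1228 for tested members. The median excess of the members over genes of like length was 0.40, −0.37 and 0.29 in morphants 1, 2 and 3. For biogenesis factors that excess was −0.17, 0.98 and 0.24 in the same libraries. In neither list were the genes of like length matched for abundance. The median log2 fold change of biogenesis factors was 0.47, with 98 of 109 above 0, against 58.2% of all tested genes. By edgeR 0 were called, and 4 of 109 were higher at an unadjusted p under 0.05, against 4.47% of all tested genes, so that count is not above the background. The factor gene rrp36 had 25.02, 27.8 and 22.4 CPM in morphants 1, 2 and 3, against 11.4, 17.1 and 10.9 CPM in controls 1, 2 and 3 (log2 fold change 0.93, SE 0.29, edgeR adjusted p = 0.38). In that gene, which had the smallest p of the list, all morphants were above all controls. Such a separation was found in 13 of 109 biogenesis genes, against 7.77% of all tested genes. In 0 of them all morphants were below all controls, against 9.18%.

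Translation factors were closer to the controls in their median, while single genes spread widely. The SD over the list was 0.80, 0.75 and 0.46 in morphants 1, 2 and 3, against 0.15, 0.26 and 0.18 in controls 1, 2 and 3. In 9 of 60 genes all morphants were above all controls, against 7.77% of all tested genes. In 0 genes they were below all controls, against 9.18%. The 60 tested genes had a median of 0.22, 0.21 and 0.31 in morphants 1, 2 and 3, against −0.057, −0.0012 and 0.045 in controls 1, 2 and 3, and 0 were called. The 19 tested genes of p53 signalling and of the sensors of the free 5S ribonucleoprotein had a median of 0.54, 0.38 and 0.47 in morphants 1, 2 and 3, against 0.20, −0.012 and −0.15 in controls 1, 2 and 3. By edgeR 0 were called, and DESeq2 called 1 of 19, against 1.61% of the genes it tested. This was sesn1, a stress-induced sestrin gene that restrains mTOR signalling. It had 55.2, 60.1 and 55.2 CPM in morphants 1, 2 and 3, against 23.2, 30.0 and 25.4 CPM in controls 1, 2 and 3 (log2 fold change 1.118, SE 0.25, edgeR adjusted p = 0.21, DESeq2 adjusted p = 0.0196). Unlike the ribosomal protein genes, sesn1 stood at about the same level in all 3 morphants.

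**Figure D5:**
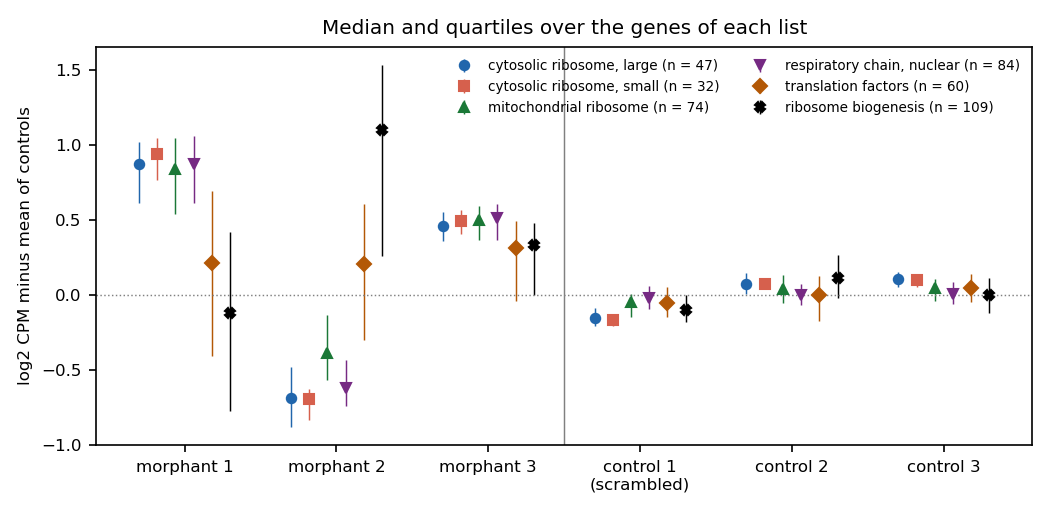
Median (symbol) and quartiles (line) of log2 CPM minus the mean of controls over the tested genes of 6 lists in each library. Both subunits of the cytosolic ribosome, the mitochondrial ribosome and the respiratory chain are above 0 in morphants 1 and 3 and below 0 in morphant 2, while ribosome biogenesis factors are highest in morphant 2 at 1.101.

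Markers of other cell types also differed between these libraries, and their part in the ribosomal protein values was not tested. The 13 tested blood markers had a median of 3.32, 1.37 and 2.37 in morphants 1, 2 and 3, against −1.85, 1.06 and 0.85 in controls 1, 2 and 3. Summed levels of the blood list ran from 673 to 2771 CPM in morphants and from 213 to 629 CPM in controls, and lyz was at 0 in all libraries. The 18 tested yolk syncytial markers had a median of 2.48, 0.021 and 3.45 in morphants 1, 2 and 3, against −1.45, −0.16 and 1.87 in controls 1, 2 and 3. Their summed level ran from 2880 to 9199 CPM in morphants and from 6013 to 6618 CPM in controls, with ttr at 0 in all libraries. By median deviation both lists were lowest of the morphants in morphant 2 and lowest of the controls in control 1. The ribosomal protein genes had the same low ends. Unlike them, the blood list in morphant 2 stood above all controls, and the yolk list was highest in morphant 3. By summed level the yolk list was highest of the controls in control 1.

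The other lists of markers were lower or mixed in the morphants. Summed levels of 14 neuron markers ran from 246 to 344 CPM in morphants and from 427 to 495 CPM in controls. Muscle markers ran from 414 to 574 CPM in morphants and from 351 to 573 CPM in controls, and anterior neural markers from 208 to 286 CPM in morphants and from 232 to 238 CPM in controls. The neuron sums of the groups did not overlap, whereas the muscle and anterior sums did. Epidermis markers ran from 9026 to 19710 CPM in morphants and from 14396 to 20798 CPM in controls. The caudal markers ran from 7691 to 16836 CPM in morphants, lowest in morphant 2, and from 9558 to 11970 CPM in controls. By median the caudal list stood at 0.50, −0.18 and 0.074 in morphants 1, 2 and 3. In controls 1, 2 and 3 it stood at −0.12, 0.14 and 0.10. Like the ribosomal protein genes it was highest in morphant 1, lowest in morphant 2 and, of the controls, lowest in control 1. The muscle and anterior lists had both low ends too, and the neuron and epidermis lists did not. Their part was not tested.

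The group comparison depended on single morphant libraries. Without morphant 2, 13 members passed the threshold as higher (8 large, 5 small), against 4.09% of the 18125 genes then tested. Their log2 fold changes ran from 0.78 to 1.22 with edgeR adjusted p-values from 0.043 to 0.0497, 0 members were lower, against 4.37% of all genes, and the medians over the subunits were 0.63 (large) and 0.71 (small). The 13 were rpl18, rpl22, rpl23, rpl32, rpl35, the 6136-base row of rpl37, rpl39, rplp2, rps10, rps16, rps24, rps25 and rps28. Such calls were not particular to the members. In the same fit 15 of 74 mitochondrial ribosomal protein genes, 19 of 84 respiratory chain genes and 8 of 13 mitochondrial mRNAs passed as higher. With the length trend removed as well, 8 members passed as higher, against 3.17% of all genes, and 0 as lower, against 2.58%. Of these 8, 4 (rpl22, the 6136-base row of rpl37, rps16 and rps24) were among the 13 members named above. The others were rpl15, rpl21, rps9 and rps19. All 8 lay at the long end, with 2385 to 6136 bases of exon, against a median of 1225 over the 80 members. In that fit 3 of 74 mitochondrial ribosomal protein genes, 3 of 84 respiratory chain genes and 3 of 13 mitochondrial mRNAs passed as higher. Without morphant 1, 0 members passed, against 0.097% of all genes higher and 0.00539% lower, and the medians were −0.0057 (large) and −0.0041 (small).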

How the data were processed

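RNA-seq of polyadenylated RNA, 1 library per sample, gave whole-number counts per Ensembl gene, which the authors deposited together with FPKM values. STAR 2.7.10a, DESeq2 1.38.3 and the build GRCz11 appear, without roles, in the submitters' processing notes. Which tool counted reads, with which strand setting, annotation and treatment of multiply mapped reads, is not given in the sources used here, so counts of paralogues, overlapping and antisense genes are uncertain. Counts over deposited FPKM gave exon lengths that were whole bases (within 0.05) for 100% of 27117 genes, and the FPKM scales followed median-of-ratios size factors.

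Genes kept by filterByExpr (17803) were scaled by TMM and entered edgeR 4.0.16 under R 4.3.3, with group as the only term. P-values are two-sided quasi-likelihood F tests, adjusted by Benjamini-Hochberg over all tested genes, and SE is the absolute log2 fold change over the square root of F. Deviations are log2 CPM (prior count 2) minus the mean of the controls. Like-length values are medians over the 200 tested other genes nearest in log exon length. The length trend was removed by a lowess curve per library (span 0.3).

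Members and lists were chosen with earlier results of these data known. Named members are those with roles listed by hand, the 3 highest and 3 lowest log2 fold changes, the 2 smallest p-values and the 2 highest and 2 lowest FPKM per subunit, members whose groups do not overlap, and up to 2 genes of each other list with the smallest p. Other genes were chosen after their values were seen. A few genes that the rule names are not reported here. Alternatives were DESeq2 1.42.0, limma-trend 3.58.1 on log2(FPKM + 1) and log2(FPKM + 0.1), other scalings, filters and like-length windows, a replicate block, each kind of control alone, and each library left out. Leaving out morphant 2 together with the length trend, and leaving out libraries for the share of counts, were added after the data were seen. The fits were tested on simulated counts. Promoter and protein sequences were not analysed here, and coordinates are not given, since the reference gene table belongs to another assembly. Figures were drawn with matplotlib 3.10.9.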

Additional observations from a re-analysis of the deposited data

How the results depend on the processing

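The medians over both subunits, the excess over like-length genes and the shares of counts moved by less than the spread between replicates under all alternatives, with medians from −0.0057 to 0.63 (large) and −0.0041 to 0.71 (small). That spread is wide among the morphants, so this is no sign of stability. The lowest medians came without morphant 1 and no longer lay above 0. The number of members called was 0 in each subunit under all settings except those without morphant 2. Leaving out 1 library gave 0 to 8 large and 0 to 5 small subunit genes, and leaving out morphant 2 with the length trend removed gave 4 and 4. Morphants 1 and 2 lie on opposite sides of the controls, and the medians without them span 0. Scaling by library size alone gave 0.19 and 0.21, the FPKM fits 0.23 in both subunits. Same-numbered libraries did not deviate together (correlations −0.29, −0.10 and 0.16 for numbers 1, 2 and 3). Deviations from the mean of only 3 libraries a group cannot settle whether the numbers pair them. With the replicate block 0 members were called, with medians of 0.23 (large) and 0.24 (small), and not every library correlated best with its own number. It changed no call.

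Signs of single log2 fold changes turned in the following cases, none of which concerned a called member. For rplp0 they were −0.13 with the length trend removed, −0.13 with the replicate block as well, −0.12 with the trend and morphant 2 removed, −0.11 on library size, −0.025 on log2(FPKM + 0.1), −0.025 on log2(FPKM + 1), −0.00602 without a filter, −0.018 with non-injected controls alone and −0.022 under the replicate block. For rplp2l they were −0.060 (length trend), −0.081 (length trend and replicate block), −0.061 (library size), −0.030 (FPKM + 0.1), −0.024 (FPKM + 1) and −0.016 (replicate block). For rpl22l1 they were −0.035 (length trend), −0.087 (length trend and replicate block) and −0.031 (non-injected controls). The length trend with the replicate block gave −0.039 for the 1272-base row of rpl37 and −0.051 for rpl38. Removing the trend and morphant 2 gave −0.044 for rpl5b, and scaling by library size gave −0.014 for rps6. Against the scrambled control alone rpl3 stood at 0.081, rps8b at 0.084 and rps27l at −0.13.

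Leaving out 1 library at a time turned the sign of 19 named members, with these ranges of the log2 fold change: rpl10 −0.0057 to 0.70, rpl10a −0.11 to 0.55, rpl22l1 −0.13 to 0.61, rpl3 −0.15 to 0.018, rpl35a −0.16 to 0.58, the 1272-base row of rpl37 −0.21 to 0.59, rpl38 −0.076 to 0.57, rpl8 −0.026 to 0.38, rpl9 −0.32 to 0.096, rplp0 −0.18 to 0.18, rplp2l −0.12 to 0.38, rps15 −0.022 to 0.82, rps19 −0.039 to 0.66, rps2 −0.050 to 0.54, rps26 −0.15 to 0.67, rps29 −0.051 to 0.52, rps3 −0.10 to 0.55, rps3a −0.0033 to 0.36 and rps6 −0.031 to 0.23.

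Counting error is small for most members, and the 3 libraries per group set the precision. Low rows such as rps8b rest on few reads. The cause of these turns was not tested.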
